A study of Mus musculus with 4 samples.

Results

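The comparison described here sets tumour leukocytes of mice given CD40 antibody and PD1 antibody together against those of mice given CD40 antibody alone, and so asks what PD1 antibody adds on top of CD40 antibody. Each arm was 1 library made from 6 pooled mice. Barcodes with at least 300 detected genes and at most 10% mitochondrial UMIs (unique molecular identifiers, each counting 1 captured mRNA) were taken as cells, which left 7906 cells in the CD40 library and 9720 in the combination library, 17626 of the 35411 cells kept in the series. The mice carried B16-F10 tumours, a mouse melanoma cell line. Per the labels, CD40 antibody or its dilution buffer was injected into the tumour, and PD1 antibody or IgG into a vein, on days 8 and 11, with tumour collection at day 14 after inoculation. The control library came from IgG-treated mice and the PD1 library from mice given PD1 antibody. The sources used here do not give the mouse strain, age or sex, the antibody clones, or whether the CD40 group also had IgG and the PD1 group also had buffer. Live CD45+ cells were sorted from mashed tumours, so tumour cells themselves were largely removed: the labels call the cell type melanoma, but 10 barcodes of the CD40 library and 3 of the combination library passed a gate on melanocyte genes.

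Antigen-presenting cells receive help from T cells through CD40, and an agonist antibody takes the place of the ligand that helper T cells carry. PD1, encoded by Pdcd1, is an inhibitory receptor that activated T cells carry, and its ligands PD-L1 and PD-L2 are encoded by Cd274 and Pdcd1lg2. Interferon gamma from T cells and NK cells raises guanylate-binding proteins, antigen presentation genes, nitric oxide synthase and PD-L1 in macrophages. Neutrophils recruited into tumours can take on states rich in interleukin 1 and CXCR2 ligands.

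The 4 matrices held between 117735875 and 164755549 UMIs each, and kept cells had medians of 14833 UMIs in the CD40 library and 13369.5 in the combination library. These 2 libraries shared 144 barcodes, 1.73% of the smaller, where other pairs of libraries shared 94 to 132. Of these 144 barcodes, 135 were kept in both libraries and 41 fell in the same class. Cells were put into classes by counts of lineage marker UMIs, and class levels are CPM, the UMIs of a gene summed over a class per 1000000 UMIs of that class. Cd3e, a T cell receptor complex gene, stood at 1258 and 1223 CPM in CD8 T cells of the CD40 and combination libraries against 1.63 and 3.40 CPM in mononuclear phagocytes. Lyz2, the lysozyme of myeloid cells, stood at 10770.3 and 9871 CPM in mononuclear phagocytes. With 1 library per group no difference below was tested, mice within a pool cannot be told apart, and every interval is a 95% interval that covers counting error only.

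Promoters of 5 genes, all of which hold a match of the motif marked, are printed here because 2 groups of genes, the interferon gamma response genes of phagocytes and 12 of the 14 activation genes of neutrophils, were higher in the combination library. Each is the 300 bases around the gene start given in RefSeq (GRCm38.p6), 5′ to 3′ on the gene's strand. Capitals mark matches of the interferon-stimulated response element GAAANNGAAA in Gbp2, Socs1 and Irgm1, and of the NF-kappaB motif in Cxcl2 and Cxcl3, on either strand, with overlapping matches joined.
Gbp2, chr3:142620413-142620712, plus strand: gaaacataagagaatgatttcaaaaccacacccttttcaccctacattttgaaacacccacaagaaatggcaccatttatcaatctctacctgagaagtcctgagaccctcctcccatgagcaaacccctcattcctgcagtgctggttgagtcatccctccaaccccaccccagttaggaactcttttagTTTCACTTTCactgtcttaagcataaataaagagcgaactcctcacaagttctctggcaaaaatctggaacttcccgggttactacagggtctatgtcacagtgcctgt
Socs1, chr16:10785487-10785786, minus strand: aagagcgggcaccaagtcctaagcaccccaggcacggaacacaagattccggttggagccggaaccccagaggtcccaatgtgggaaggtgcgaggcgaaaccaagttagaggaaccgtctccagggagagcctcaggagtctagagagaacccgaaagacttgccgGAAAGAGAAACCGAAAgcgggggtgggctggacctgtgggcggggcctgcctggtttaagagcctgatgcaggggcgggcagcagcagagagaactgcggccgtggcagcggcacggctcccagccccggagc
Irgm1, chr11:48871371-48871670, minus strand: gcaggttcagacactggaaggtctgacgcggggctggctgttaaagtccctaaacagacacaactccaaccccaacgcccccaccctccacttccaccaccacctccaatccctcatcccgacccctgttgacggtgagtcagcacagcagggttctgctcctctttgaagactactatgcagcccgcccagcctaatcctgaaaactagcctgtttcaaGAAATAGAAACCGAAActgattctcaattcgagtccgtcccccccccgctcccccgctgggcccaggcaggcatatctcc
Cxcl2, chr5:90903649-90903948, plus strand: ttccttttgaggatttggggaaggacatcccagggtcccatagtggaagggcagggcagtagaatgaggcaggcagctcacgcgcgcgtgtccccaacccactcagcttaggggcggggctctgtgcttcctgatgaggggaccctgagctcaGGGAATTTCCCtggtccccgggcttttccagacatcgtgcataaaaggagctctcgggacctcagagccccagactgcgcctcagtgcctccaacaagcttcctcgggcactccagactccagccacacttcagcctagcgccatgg
Cxcl3, chr5:90785851-90786150, plus strand: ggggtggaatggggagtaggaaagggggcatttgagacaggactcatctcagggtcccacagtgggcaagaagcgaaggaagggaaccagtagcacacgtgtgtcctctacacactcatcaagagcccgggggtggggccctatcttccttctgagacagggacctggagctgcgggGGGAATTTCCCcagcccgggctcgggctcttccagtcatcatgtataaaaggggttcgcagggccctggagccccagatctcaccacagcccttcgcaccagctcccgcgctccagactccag

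Gbp2 encodes a guanylate-binding protein, Socs1 a brake on cytokine receptors, Irgm1 an immunity-related GTPase, and Cxcl2 and Cxcl3 ligands of the neutrophil receptor CXCR2. Across 27025 RefSeq promoters of this length, 3.49% held the interferon-stimulated response element, 4.35% the NF-kappaB motif and 8.47% the gamma-activated site TTCNNNGAA. Of the 15 interferon gamma response genes, 9 had an entry, and 7 of these held the response element, 3 the gamma-activated site and 3 the NF-kappaB motif. Of the 14 neutrophil activation genes, 12 had an entry, and 3 held the NF-kappaB motif, 1 the gamma-activated site and 1 the response element. The NF-kappaB matches lay in Cxcl2, Cxcl3 and Vegfa, and the response element in Vegfa, which was lower in the combination library. Il1a, Il1b and Lcn2 had an entry without an NF-kappaB match, and Cxcl9 and Irf1 had one without the response element. The 3 motifs were counted separately and may overlap. A match describes letters in this window and does not show that a factor was bound.

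CD8 T cells and neutrophils made up larger shares of the gated immune cells in the combination library, and mononuclear phagocytes a smaller share. CD8 T cells were 2879 of 8551 gated immune cells in the combination library, 33.7% (exact interval 32.7% to 34.7%), and 1723 of 6978 in the CD40 library, 24.7% (23.7% to 25.7%), a 1.36-fold difference. The control and PD1 libraries had 8.95% and 11.0%, so the CD40 and combination libraries were both above them. Neutrophils were 14.7% (14.0% to 15.5%) against 8.33% (7.69% to 8.999%), 1.77-fold higher in the combination library, and 3.82% and 2.36% in the control and PD1 libraries. Mononuclear phagocytes, here macrophages and monocytes together, were 41.8% (40.8% to 42.9%) against 57.2% (56.1% to 58.4%), 1.37-fold lower, with 57.4% and 65.0% in the control and PD1 libraries. For both myeloid classes the PD1 library differed from the control library in the other direction, by a log2 ratio of −0.69 for neutrophils and 0.18 for phagocytes.

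Most of the difference in the neutrophil share lay in 1 cluster. When all 4 libraries were clustered together, cluster 20 held 556 of the 1260 gated neutrophils of the combination library, 44.1%, and 13 of the 581 of the CD40 library, 2.24%. Outside it, neutrophils were 8.81% of gated immune cells in the combination library and 8.16% in the CD40 library, a log2 ratio of 0.11 in place of 0.82. A cluster that comes almost wholly from 1 library may be that library rather than a cell type.

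**Figure D1:**
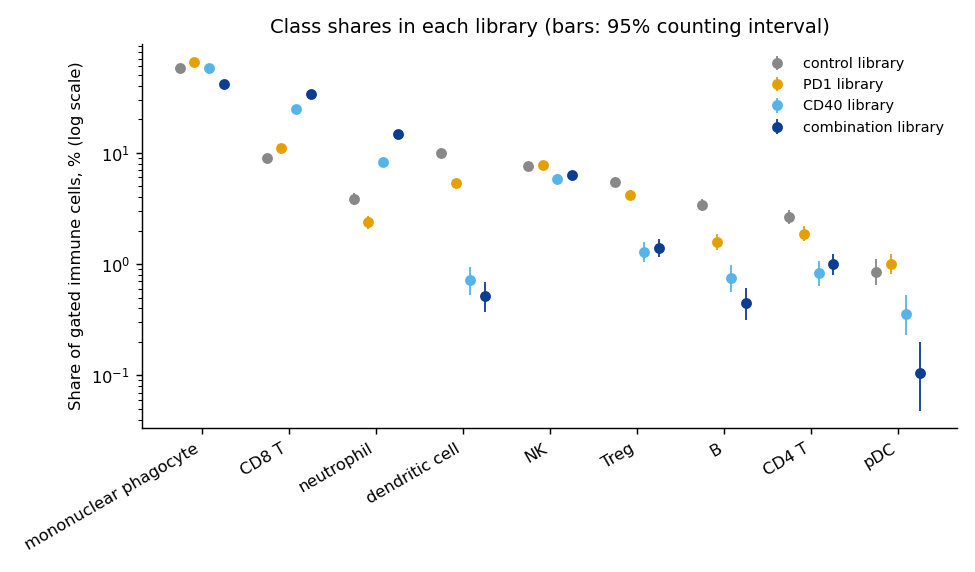
Share of gated immune cells (percent, log axis) for each class in the 4 libraries, with points for the share and bars for the exact 95% binomial interval. CD8 T cells stood at 24.7% in the CD40 library and 33.7% in the combination library, and mononuclear phagocytes at 57.2% and 41.8%.

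The other classes were small in both CD40-treated libraries. Regulatory T cells were 1.29% in the CD40 library and 1.40% in the combination library, a log2 ratio of 0.12 (interval −0.28 to 0.53), below the 5.44% and 4.16% of the control and PD1 libraries. There were 19.1 CD8 T cells per regulatory T cell in the CD40 library (15.5 to 23.9) and 24.0 in the combination library (19.98 to 29.0), intervals that overlap, against 1.64 and 2.64 in the control and PD1 libraries. The number of CD8 T cells per mononuclear phagocyte was 0.431 in the CD40 library and 0.805 in the combination library. NK cells were 5.80% and 6.32% (log2 ratio 0.12, −0.07 to 0.31), and conventional CD4 T cells 0.831% and 1.01%. Dendritic cells were 0.717% and 0.515%, from 50 and 44 cells, with an interval of the log2 ratio from −1.10 to 0.14. B cells, at 52 and 38 cells, and plasmacytoid dendritic cells, at 25 and 9, had log2 ratios of −0.75 (−1.39 to −0.11) and −1.77 (−3.05 to −0.62). Their levels of single genes were not compared, since only classes with at least 100 cells in both libraries were. Cells that passed more than 1 gate, where some doublets would fall, were 6.17% and 6.27% of kept cells and were left out. The neutrophil and phagocyte gates excluded each other, as did the T and NK cell gates, so doublets of these pairs could not pass both. Cluster 35, a neutrophil cluster with a median doublet score of 0.12, held 51 gated phagocytes of the CD40 library and 71 of the combination library.

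In mononuclear phagocytes, interferon gamma response genes, Nos2 and antigen presentation genes were higher in the combination library, and cell cycle genes, Pf4 and 9 of the 13 measured suppressive macrophage genes were lower. Of 3272 genes with at least 50 CPM and 30 UMIs in the higher library, 38 were at least 2-fold higher in the combination library (1.16%) and 11 at least 2-fold lower (0.336%), around a median log2 ratio of 0.01. Every one of the 15 interferon gamma response genes was higher, 6 of them at least 2-fold, with a median log2 ratio of 0.93. The median of the same list between the PD1 and control libraries, which share no library with this comparison, was 1.46. Median depth was 18466 UMIs per phagocyte in the CD40 library and 17437 in the combination library.

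The largest log2 ratios of the list were those of Gbp4, Socs1 and Gbp2. Gbp genes encode guanylate-binding proteins, GTPases that act on pathogen vacuoles. Gbp2 stood at 307, 1249, 472 and 1123 CPM in the control, PD1, CD40 and combination libraries, the order used from here on. Its level in the combination library was 2.38-fold that of the CD40 library (log2 ratio 1.25, 1.23 to 1.27) and below that of the PD1 library. Gbp4 stood at 34.2, 132, 64.8 and 179 CPM, a log2 ratio of 1.47 (1.42 to 1.51), and was highest in the combination library. Gbp5 had a log2 ratio of 1.22 and Gbp3 of 0.93. Reads from this family of similar genes may be shared among its members. Socs1 stood at 111, 354, 123 and 315 CPM, with a log2 ratio of 1.36. Irf1, a transcription factor induced by interferon, stood at 155, 435, 205 and 415 CPM and had a log2 ratio of 1.02. Both were close in the PD1 and combination libraries and low in the other libraries. Irgm1 had a log2 ratio of 0.93. The chemokine genes Cxcl9 and Cxcl10, whose products attract CXCR3-bearing T cells, had log2 ratios of 0.37 and 0.78. Cxcl9 stood at 427, 1259, 722 and 931 CPM, so that the PD1 library was above both CD40-treated libraries.

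**Figure D2:**
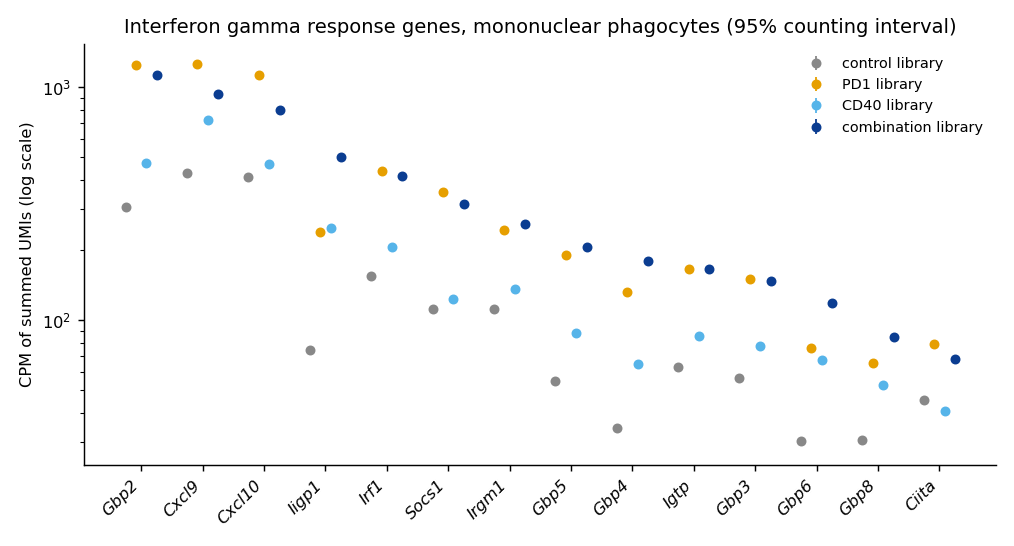
CPM of summed UMIs (log axis) of 14 of the interferon gamma response genes in mononuclear phagocytes of the 4 libraries, with points for the level and bars for the exact 95% Poisson interval. The combination library lies above the CD40 library for each of the 14 genes.

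Genes of antigen presentation differed in the same direction by smaller amounts. All 10 measured genes of MHC class I presentation were higher in the combination library, with a median log2 ratio of 0.41, led by the peptide transporter genes Tap2 (0.68) and Tap1 (0.64). All 8 of class II were higher, with a median of 0.35. Ciita, the class II transactivator, stood at 45.4, 78.5, 40.6 and 68.2 CPM, and H2-Ab1, a class II beta chain, at 2371, 3112, 2071 and 2663 CPM. None of these genes reached 2-fold. The type I interferon list was also higher in all 11 measured genes, at a median of 0.45, led by the ubiquitin-like modifier Isg15 at 528, 851, 323 and 627 CPM (0.96). Of the 13 measured costimulation and CD40 signalling genes 10 were higher, with a median of 0.27. Only 6 of the 13 stood at 0.2 or more of their level in the class that expressed them most, 4 higher and 2 lower. Cd40 itself stood at 57.3, 129, 70.1 and 112 CPM, a log2 ratio of 0.68 between the CD40-treated libraries. The PD-L1 gene Cd274 stood at 144, 310.4, 215 and 377 CPM (0.81) and the PD-L2 gene Pdcd1lg2 at 22.2, 50.05, 17.1 and 34.7 CPM (1.03). Cd40, Cd274 and Pdcd1lg2 each stood below 0.2 of their level in the class that expressed them most. The part of RNA from other cells was not tested. After each cell was thinned to 5000 UMIs, Cd274 was detected in 52.6% of cells in the CD40 library and 67.9% in the combination library (78.0% and 86.5% unthinned), and in 13.5% and 18.4% of thinned CD8 T cells.

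Nos2 (chr11:78920787-78960254, plus strand, GRCm38), the inducible nitric oxide synthase, stood at 24.3, 72.9, 86.5 and 359 CPM. It was 4.15-fold higher in the combination library than in the CD40 library (log2 ratio 2.05, 2.02 to 2.09), and lowest in the control library. It was detected in 12.8% of cells in the CD40 library and 24.9% in the combination library (19.4% and 31.2% unthinned) after thinning, and in 0.609% and 0.660% of thinned CD8 T cells. Saa3, an acute-phase protein gene, stood at 31.9, 62.5, 36.2 and 144 CPM (1.99). Upp1, a uridine phosphorylase, stood at 52.5, 235, 219 and 571 CPM (1.38). Fbxl5, the iron-sensing subunit of a ubiquitin ligase, stood at 65.9, 124, 96.1 and 287 CPM (1.58), and Cnn3, an actin-binding calponin, at 35.5, 145, 31.8 and 102 CPM (1.68). All 6 genes that the naming rule selected as higher, Gbp4 among them, were highest or second highest in the combination library and were also higher in the PD1 than in the control library. The share of all tested genes with this pattern was not counted. Cluster 22, whose leading genes were Arg1, Nos2 and Saa3, held 415 of 3575 phagocytes of the combination library (11.6%) and 63 of 3994 of the CD40 library (1.58%). Without it the log2 ratio of Nos2 was 0.995, of Saa3 0.81 and of Fbxl5 1.12, while the interferon gamma list kept a median of 0.98.

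All 12 inflammatory myeloid genes were higher, with a median of 1.48, but 10 of them stood below 0.2 of their level in the class that expressed them most. S100a9, a neutrophil alarmin, stood at 112 to 334 CPM from the CD40 to the combination library in phagocytes, against 32356 to 34289 CPM in neutrophils, so UMIs of this neutrophil gene in phagocyte droplets were also higher in the combination library. Its part in these 10 differences was not tested. The other 2 were Nos2 and the arginine transporter gene Slc7a2 (0.22).

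Among the genes lower in phagocytes of the combination library were those of proliferation. All 12 were lower, 3 of them at least 2-fold, with a median log2 ratio of −0.90, and the PD1 against control median was −0.71. Mki67, which cycling cells express, stood at 56.9, 32.3, 68.7 and 38.0 CPM (−0.85), with both PD1-treated libraries below both others. Its thinned detection was 10.8% of cells in the CD40 library and 5.41% in the combination library (21.1% and 12.1% unthinned). Of 13 measured suppressive macrophage genes 9 were lower and 4 higher, with a median of −0.72. Mrc1, the mannose receptor, stood at 312, 145, 141 and 70.6 CPM (−0.996), Gpnmb, a lysosomal glycoprotein, at 271, 159.8, 431 and 204 CPM (−1.08), and Spp1, osteopontin, at 1814, 1837, 1871 and 1034 CPM (−0.86). Mgl2, a lectin of alternatively activated macrophages, had a log2 ratio of −2.30 and the lipoprotein gene Apoe of −0.56. Arg1, arginase 1, went the other way at 807, 566, 333 and 614 CPM (0.88), as did Chil3, a chitinase-like protein gene (1.08). The share of thinned cells with an Arg1 UMI was 18.2% of cells in the CD40 library and 19.4% in the combination library (26.4% and 25.4% unthinned), so its direction turned with thinning.

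Pf4, a chemokine of platelets and some macrophages, stood at 866, 368, 272 and 97.8 CPM, 2.78-fold lower in the combination than in the CD40 library (log2 ratio −1.48, −1.51 to −1.44), and the control library was highest. Mmp12, the macrophage elastase, stood at 234, 165.02, 276 and 107 CPM (−1.37), and Dhrs3, a retinal reductase, at 108, 55.4, 61.5 and 26.4 CPM (−1.22). Ctsk, cathepsin K, stood at 14.9, 6.36, 141 and 53.0 CPM (−1.42). It was highest in the CD40 library, but few cells carried it: single cells held up to 834 UMIs in the CD40 library and 955 in the combination library, and the 10 highest cells held 49.6% and 86.4% of its UMIs. Without those cells its log2 ratio was −3.30. Clusters 2 and 3, led by Pf4, Arg1 and Mrc1 and by Mmp12 and Gpnmb, held 12.1% and 15.7% of phagocytes in the CD40 library and 4.98% and 5.12% in the combination library. Cluster 1, led by Chil3, Cxcl10 and Cxcl9, held 4.51% and 13.4%, and the largest, cluster 0, 21.1% and 22.2%.

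The heat shock genes Hspa1a and Hspa1b, near-identical copies whose reads may be split between them, were lower in the combination library in phagocytes and CD8 T cells. In phagocytes Hspa1a stood at 95.7, 99.1, 90.6 and 26.7 CPM (−1.76) and Hspa1b at 73.6, 77.0, 77.6 and 20.3 CPM (−1.94), with the combination library alone low. In CD8 T cells Hspa1a stood at 12.1, 48.0, 40.0 and 10.2 CPM (−1.97), and Hspa1b had a log2 ratio of −1.84. In neutrophils the log2 ratios were −1.95 and −2.02, but they rested on few cells, and without the 10 highest cells per library they were 0.56 and 0.93. In NK cells both were scarce, Hspa1a at 0.773 to 2.97 CPM with a log2 ratio of 1.94 (0.36 to 3.95) and Hspa1b at 1.35 to 2.23 CPM with 0.72 (−0.66 to 2.25). These genes respond to heat and misfolded proteins. The wider stress list was split: in phagocytes 6 of 11 dissociation stress genes were higher and 5 lower, Jun at 0.17 and Hsp90aa1 at −0.39.

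In neutrophils the activation genes, which encode inflammatory cytokines and chemokines, were far higher in the combination library and most granule genes lower. Of 2875 genes tested, 135 were at least 2-fold higher (4.7%) and 278 at least 2-fold lower (9.67%), around a median log2 ratio of −0.39. With that median set to 0, 284 were higher and 32 lower, so the balance of directions depends on the scaling. Neutrophils held little RNA, with medians of 3754 UMIs and 1306 genes per cell in the CD40 library and 4425 UMIs and 1206.5 genes in the combination library. Of 14 activation genes, 12 were higher and 11 at least 2-fold higher, with a median log2 ratio of 1.74, against a median of 0.47 between PD1 and control. Without cluster 20, whose leading genes include several of this list, the median was 0.48, and 45 genes were higher and 14 lower.

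Il1a (chr2:129299610-129309972, minus strand), the alarm cytokine interleukin 1 alpha, stood at 24.0, 39.2, 90.4 and 1689 CPM in the control, PD1, CD40 and combination libraries. The combination library stood 18.7-fold above the CD40 library (log2 ratio 4.22, 4.03 to 4.43), and the other 3 libraries were all low. After thinning to 1500 UMIs, it was detected in 4.83% of cells in the CD40 library and 36.6% in the combination library (9.12% and 46.4% unthinned) and in 0.174% of thinned CD8 T cells of the combination library. Outside cluster 20 the log2 ratio was 1.66. Il1b, interleukin 1 beta, stood at 2403, 2916, 2429.6 and 8242 CPM (1.76). Of the CXCR2 ligand genes, Cxcl2 stood at 6356, 10568, 6779.8 and 23982 CPM (1.82) and Cxcl3 at 1569.8, 2236, 688 and 3106 CPM (2.18). For Cxcl3 the CD40 library was the lowest of the 4. Lcn2, the iron-siderophore binder lipocalin 2, stood at 384, 656, 936 and 4906 CPM (2.39). Ptgs2, the prostaglandin synthase, had a log2 ratio of 2.01, Icam1, an adhesion molecule, of 1.71, Tnf of 1.35, and the chemokine genes Ccl4 and Ccl3 of 1.63 and 1.03. Nos2 stood at 14.4, 69.1, 109 and 429 CPM (1.98) and Cd274 at 484, 917, 1479.6 and 2599.7 CPM (0.81). Siglecf and Vegfa, genes described in tumour neutrophils, had log2 ratios of −1.47 and −0.47.

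**Figure D3:**
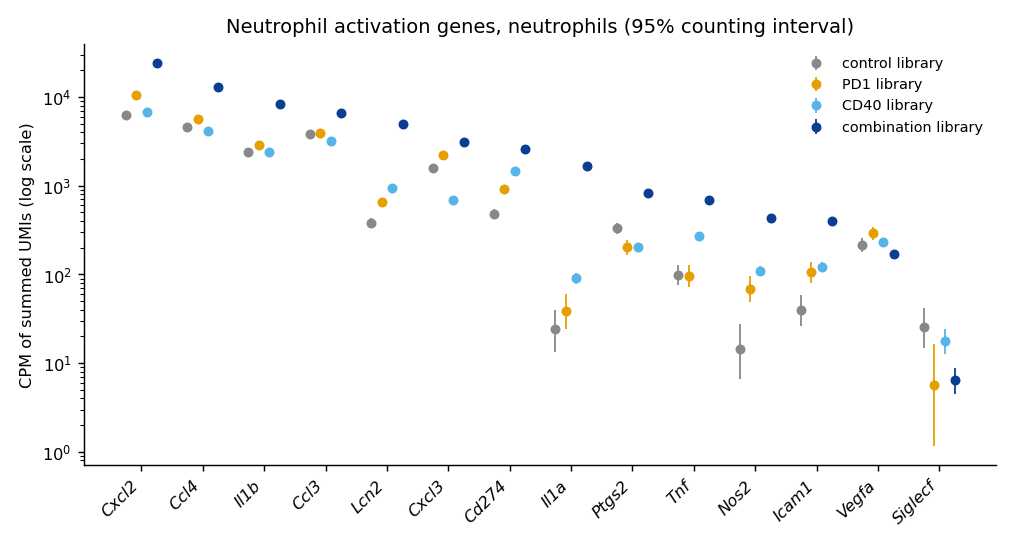
CPM of summed UMIs (log axis) of the 14 neutrophil activation genes in neutrophils of the 4 libraries, with points for the level and bars for the exact 95% Poisson interval. The combination library is highest for 12 genes, and Siglecf and Vegfa are the exceptions.

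Genes that the naming rule selected as higher included some absent from the CD40 library. Csf3, the granulocyte growth factor G-CSF, had 0 UMIs in the CD40 library and stood at 204 CPM in the combination library, in 136 cells, at least 161-fold higher when the CD40 library is set to 3 UMIs. It stood at 0 in the control library and at 13.1 CPM in the PD1 library. F3, tissue factor, which starts coagulation, stood at 32.0, 56.04, 22.4 and 398 CPM (4.15, 3.76 to 4.57) and was detected in 2.68% of cells in the CD40 library and 23.3% in the combination library (5.85% and 36.3% unthinned) after thinning. Saa3 stood at 1.60, 16.8, 23.7 and 479 CPM (4.34). Outside cluster 20 the log2 ratio was 1.87 for F3 and 0.91 for Saa3. Hamp, the iron hormone hepcidin, had 0 UMIs in the other 3 libraries and 125 CPM in the combination library, but from 31 cells. Mpo, myeloperoxidase, came from 2 cells of the combination library and 1 of the CD40 library, which held 3 UMIs (5.46, 3.90 to 7.75). With cells named by cluster it was lower in the combination library instead.

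Most measured genes of the costimulation and CD40 signalling list and of the interferon gamma list were also higher in neutrophils. Of the first list, Traf1, an adaptor of TNF family receptors including CD40, stood at 35.2, 61.6, 126 and 479 CPM (1.93), and the NF-kappaB subunit genes Nfkb1, Nfkb2 and Relb had log2 ratios of 1.46, 1.16 and 0.98. Of its 11 measured genes 10 were higher, with a median of 0.69, while Cd40 itself was scarce at 8.03 to 10.4 CPM. In the interferon gamma list 13 of 14 measured genes were higher, at a median of 0.95, and of 1.31 outside cluster 20. The PD1 against control median was 1.89. Gbp5 stood at 33.6, 170.0, 174 and 476 CPM (1.45) and Cxcl10 at 33.6, 433, 268 and 677 CPM (1.34). The type I interferon list was split, with a median of 0.16, 6 higher and 4 lower, and Isg15 at 1.09.

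Of 12 granule and alarmin genes, which neutrophils make mostly as they mature in the marrow, 10 were lower, 5 of them at least 2-fold, with a median of −0.93. The median of all 10425 genes with at least 10 UMIs in neutrophils was −0.55, so most genes of the class were also lower on this scale. The 2 higher genes of the list were Lcn2 and S100a9 (0.08). Mmp9, a gelatinase, stood at 647, 557, 496 and 219 CPM (−1.18), and Retnlg, a resistin-like protein of mature neutrophils, at 1969, 2264, 2251 and 1236 CPM (−0.86). Ltf, lactoferrin, had a log2 ratio of −0.99 and Cd177, a surface protein of neutrophils, of −1.21. S100a8 and Wfdc21, at −0.01 and −0.17, lay above the median of the class, so their direction turns with the scaling. Lyz2 stood at 2209, 2966, 1629 and 556 CPM (−1.55). Phagocytes held it at a higher level. The median neutrophil held 2 UMIs of phagocyte markers in the CD40 library and 1 in the combination library. Lyz2 is itself among these markers, so these medians are not independent of its level. The part of Lyz2 RNA from phagocytes was not tested. Camp, cathelicidin, and Ngp stood at 844 to 115 CPM and 1168 to 359 CPM, but from 8 and 24 cells in the CD40 library, where 1 cell held 1597 UMIs of Camp. Without the 10 highest cells per library the log2 ratio of Camp was 1.61 in place of −2.87, with the CD40 library, then at 0 UMIs, set to 3, and that of Ngp −0.72 in place of −1.70. Chil3 had a log2 ratio of −2.09 from 21 and 27 cells, and of −0.33 without the 10 highest cells. Ccl2, a monocyte attractant, stood at 56.1, 204, 383 and 122 CPM (−1.65) from 108 and 159 cells, and had a log2 ratio of −1.06 without the 10 highest.

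In CD8 T cells granzyme genes were higher in the combination library and few other genes differed. Of 3233 genes tested 11 were at least 2-fold higher (0.34%) and 5 at least 2-fold lower (0.155%), around a median of 0.01. Gzmb (chr14:56258838-56262260, minus strand), granzyme B, the main killing protease of T cells, stood at 1008, 3458, 1286 and 3039 CPM. It was 2.36-fold higher in the combination library than in the CD40 library (log2 ratio 1.24, 1.22 to 1.26), and both PD1-treated libraries were above both others. After thinning to 5000 UMIs it was detected in 73.1% of cells in the CD40 library and 82.6% in the combination library (79.4% and 86.2% unthinned), and in 1.49% and 3.82% of thinned phagocytes. The share of Gzmb-positive cells thus differed less than their summed level. All 5 genes of the granzyme C to G group, clustered on chromosome 14 and similar enough that reads may be shared, were higher, with a median of 1.12 and of 0.70 in PD1 against control.

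Gzmd stood at 189, 423, 107 and 314 CPM (1.56, 1.4995 to 1.61), Gzme at 193, 314, 96.9 and 255 CPM (1.40) and Gzmf at 662, 1664, 664 and 1439 CPM (1.12). In each the CD40 library was at or near the lowest and the PD1 library the highest. Few cells carried them: 110 of 1723 cells in the CD40 library and 291 of 2879 in the combination library had a Gzmd UMI. Prf1, the pore-forming perforin, stood at 474, 1419.8, 465 and 915 CPM (0.98), yet it was detected in 57.0% of cells in the CD40 library and 57.7% in the combination library (76.2% and 77.1% unthinned) after thinning. Gzmk and Gzma stood at 50.3, 104, 286 and 407 CPM (0.51) and 34.3, 221, 566 and 878 CPM (0.63), with both CD40-treated libraries above the others. Thinned detection of Gzmk was 51.4% of cells in the CD40 library and 61.6% in the combination library (65.6% and 74.5% unthinned). Of the 12 cytotoxic effector genes 8 were higher and 4 lower, with a median of 0.16. Ifng, interferon gamma, stood at 279, 607, 553 and 533 CPM (−0.05), lower in the control library than in the other 3.

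Pdcd1, the gene of the antibody's target, stood at 424, 524, 460.0 and 477 CPM in CD8 T cells, a log2 ratio of 0.05. Among 11 measured exhaustion genes 7 were higher and 4 lower, with a median of 0.06. The inhibitory receptor genes Havcr2, Lag3 and Tigit had log2 ratios of 0.16, 0.17 and 0.17. Tox, a transcription factor of exhausted T cells, stood at 563, 411, 425 and 283 CPM (−0.59), and Cd160 had a log2 ratio of −0.51. Ctla4 stood at 99.5 to 171 CPM (0.78). Of 10 naive and stem-like genes 7 were higher, with a median of 0.30, where the PD1 against control median was −1.09. Slamf6, a receptor of stem-like T cells, stood at 31.4, 14.6, 21.5 and 36.6 CPM (0.76), the chemokine gene Xcl1 at 492, 196, 75.3 and 138 CPM (0.87) and Tcf7, the stem-like transcription factor, at 94.1, 42.6, 32.0 and 38.7 CPM (0.27). Apart from Slamf6 these were highest in the control library.

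Nr4a1, an immediate gene of T cell receptor signalling, stood at 26.9, 39.1, 33.4 and 69.6 CPM (1.06, 0.95 to 1.17). Its thinned detection was 8.59% of cells in the CD40 library and 11.8% in the combination library (15.4% and 20.2% unthinned), with 26.6% and 28.5% in thinned phagocytes, which also express it. Of the 10 T cell receptor signal genes 5 were higher and 5 lower, with a median of 0.01. Serpine2, a protease inhibitor, stood at 130.2, 225, 94.5 and 213 CPM (1.18). St6galnac3, a sialyltransferase, was the gene named as lower, at 299, 106, 175 and 79.9 CPM (−1.13), with both PD1-treated libraries below both others. Proliferation genes had a median of 0.05 (7 higher, 5 lower), T helper 1 genes 0.21 (6 and 4) and effector memory genes 0.08 (8 and 7). The interferon gamma response list had a median of 0.35, with 12 higher and 3 lower, and the type I interferon list 0.69, with 10 higher and 1 lower. Of the 15 interferon gamma genes 6 stood at 0.2 or more of their level in the highest class, 5 higher and 1 lower. Only 1 type I gene did, and the part of RNA from other cells was not tested.

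**Figure D4:**
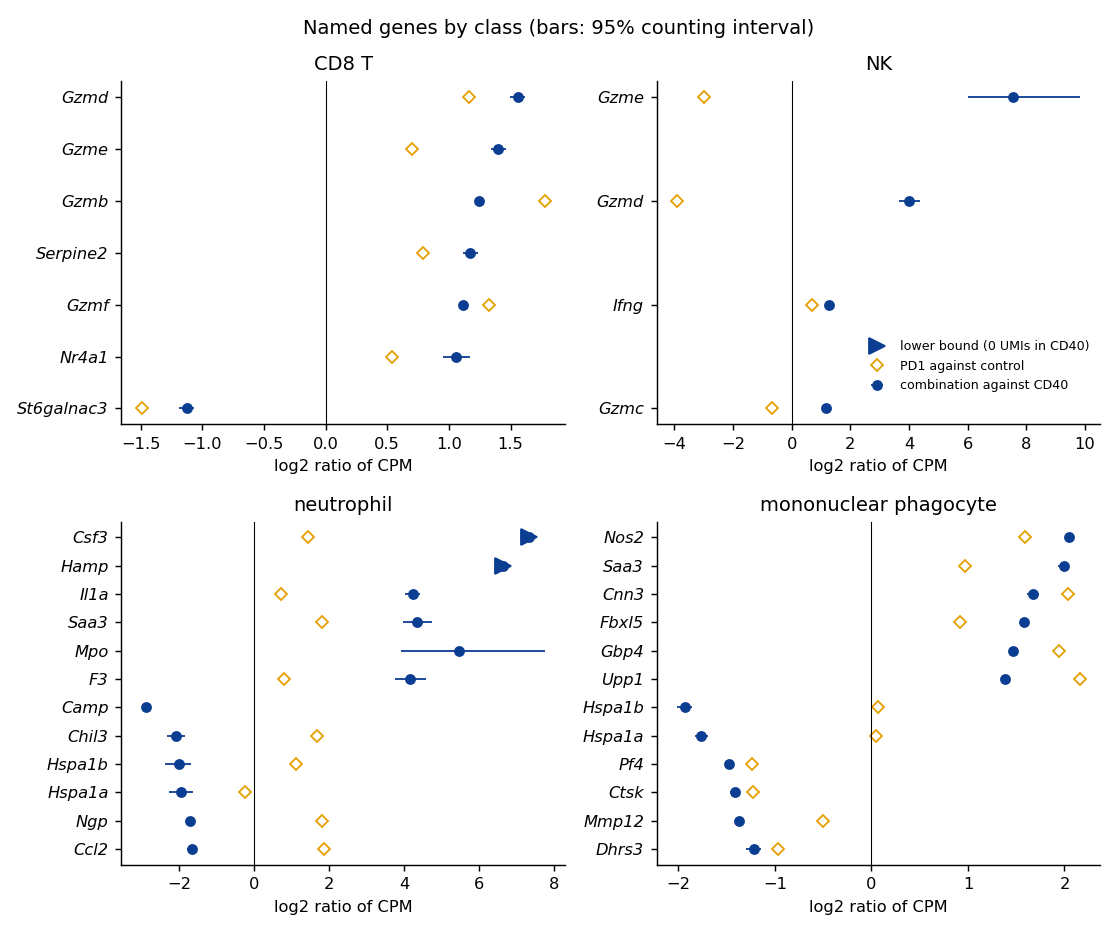
log2 ratio of CPM for the genes chosen by the naming rule in 4 classes: filled points compare combination with CD40 (bars: exact 95% counting interval; triangles: lower bounds where the CD40 library had 0 UMIs) and open diamonds compare PD1 with control. Nos2 in phagocytes stood at 2.05 and 1.59, and Gzme in NK cells at 7.56 and −3.01.

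The shares of T cell receptor beta V segments among CD8 T cells also differed between the libraries. The leading beta V segment was Trbv3 in 8.21%, 5.49%, 10.9% and 21.0% of CD8 T cells in the 4 libraries, Trbv19 in 6.70%, 4.85%, 15.03% and 19.5%, and Trbv13-1 in 6.53%, 2.11%, 3.95% and 10.8%. Each was highest in the combination library. Trbv31, at 1.68%, 1.90%, 9.40% and 0.590%, Trbv14, at 1.01%, 2.74%, 7.66% and 2.78%, and Trbv12-2, at 3.52%, 4.11%, 8.24% and 3.99%, were highest in the CD40 library. No segment was assigned in 3.71% of cells of the CD40 library and 3.99% of the combination library. Each pool mixes 6 mice, and a share can come from 1 expanded clone in 1 mouse, which these values do not separate. Without Trbv3 cells, the log2 ratio of the CD8 T cell share was 0.34 in place of 0.45.

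Gzmb was higher in the combination library within each beta V group. In Trbv3 cells it stood at 929 CPM in the CD40 library and 1712 CPM in the combination library, in Trbv19 cells at 1324 CPM in the CD40 library and 2453 CPM in the combination library and in Trbv13-1 cells at 1205 CPM in the CD40 library and 4936 CPM in the combination library. In all other CD8 T cells, with another segment or none assigned, the levels were 1327 and 3266 CPM. Gzmk went both ways. It was higher in the combination library in Trbv3 cells, at 703 CPM in the CD40 library and 898 CPM in the combination library. In all other CD8 T cells it was also higher, at 241 and 382 CPM. It was lower in Trbv19 cells, at 254 and 199 CPM, and in Trbv13-1 cells, at 283 and 249 CPM. Gzmd, which few cells carried, was higher in the combination library in all 4 groups. In Trbv3 cells it stood at 2.48 CPM in the CD40 library, from 6 UMIs, and 159 CPM in the combination library. The levels were 10.0 and 71.3 CPM in Trbv19 cells, 66.6 and 518 CPM in Trbv13-1 cells, and 142 and 434 CPM in all other CD8 T cells. Several clusters had a V segment among their leading genes. Cluster 10, led by Gzmk and Trbv3, held 18.5% and 27.0% of CD8 T cells in the CD40 and combination libraries. Cluster 11, led by Cxcr6 and Trbv19, held 31.8% and 17.4%, and cluster 24, led by Ifng, Prf1, Gzmb and Trbv13-1, held 4.53% and 11.1%.

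**Figure D5:**
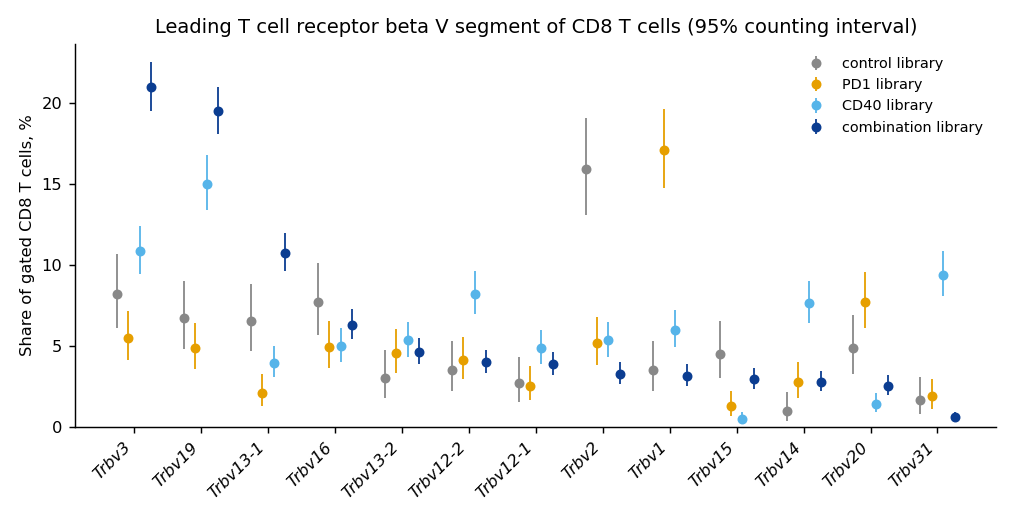
Share of CD8 T cells (percent) whose leading T cell receptor beta V segment is the one on the axis, in the 4 libraries, with points for the share and bars for the exact 95% binomial interval. Trbv3 stood at 10.9% in the CD40 library and 21.0% in the combination library, and Trbv31 at 9.40% and 0.590%.

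NK cells differed least among the 4 classes in the number of genes past 2-fold. Of 3282 genes tested 5 were at least 2-fold higher in the combination library (0.152%) and 0 lower (0%), around a median of −0.04. The genes named as higher were granzymes of the C to G group and Ifng. Gzmc stood at 1609.9, 1005, 798 and 1776 CPM (1.15, 1.10 to 1.20), highest in the combination and control libraries, and was detected in 15.7% of cells in the CD40 library and 22.8% in the combination library (19.3% and 27.6% unthinned) after thinning. Gzmd stood at 276, 18.3, 13.1 and 210.2 CPM (4.00), but 5 cells of the CD40 library and 27 of the combination library held it. Gzme stood at 60.5, 7.52, 0.580 and 109 CPM, a log2 ratio of 7.56 (6.01 to 9.84) against 3 UMIs in the CD40 library. The 10 highest cells held 96.1% and 96.5% of the Gzmd and Gzme UMIs of the combination library.

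Ifng stood at 45.2, 73.3, 106 and 256 CPM (1.26), but 1 cell of the combination library held 1098 UMIs. Without the 10 highest cells per library its log2 ratio was −0.13, and its thinned detection was 28.7% of cells in the CD40 library and 25.9% in the combination library (41.0% and 42.8% unthinned). Gzmk stood at 11.1, 19.6, 92.6 and 178 CPM (0.94, 0.79 to 1.10) and was detected in 20.2% of cells in the CD40 library and 32.1% in the combination library (26.7% and 40.7% unthinned) after thinning. The main NK effector genes were close: Gzma had a log2 ratio of −0.03, Prf1 of −0.13 and Gzmb of 0.28, and the cytotoxic list had 6 genes higher and 6 lower. Of 12 proliferation genes 11 were lower, with a median of −0.35, none by 2-fold. Mki67 stood at 32.6, 37.8, 282 and 211 CPM (−0.42), with both CD40-treated libraries far above the others. Of 13 maturation and activation genes 6 were higher and 7 lower. Klf2, a transcription factor of resting lymphocytes, stood at 262, 311, 665 and 419 CPM (−0.67), the integrin gene Itga2 had a log2 ratio of −0.57, and Tnfrsf9, a costimulatory receptor induced by activation, of 0.56.

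Chemoattractant, metabolic and melanoma gene lists were also compared. In phagocytes, all 6 measured T cell chemoattractant genes were higher, with a median of 0.92, but 3 of them stood below 0.2 of their level in the highest class. Monocyte and neutrophil chemoattractants were split 4 to 4, with the monocyte attractants Ccl2 and Ccl7 at −0.01 and 0.13. Glycolysis and hypoxia genes had a median of −0.07 in phagocytes, 0.05 in neutrophils and 0.17 in CD8 T cells, and Adm, adrenomedullin, stood at 8.65, 8.36, 15.7 and 2.24 CPM in phagocytes (−2.81). All 8 genes of the melanoma list were lower in phagocytes, with a median of −0.37, and the pigment gene Pmel was scarce at 1.95 to 1.85 CPM. The list includes Gpnmb, which is also on the suppressive macrophage list. Intervals held 0 for Pmel (−0.41 to 0.25), Mlana (−0.40 to 0.19) and Tyr (−1.30 to 0.40). They did not for Dct (−0.55 to −0.06) and Tyrp1 (−0.75 to −0.15). In neutrophils all 6 measured T cell chemoattractant genes were higher, with a median of 0.95, and 9 of 12 proliferation genes were lower, with a median of −0.50 near that of the class. Only 3 of these chemoattractant genes, all higher, stood at 0.2 or more of their level in the highest class. Only 2 of these proliferation genes did, and both were lower. In NK cells the interferon gamma list had 12 of 14 genes higher, with a median of 0.32. Of the 14, 4 stood at 0.2 or more of their level in the highest class, 3 higher and 1 lower. The type I list had 11 of 11 higher, with a median of 0.62, and 1 of these stood at 0.2 or more of its highest class.

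The genes named above as higher in CD8 T cells and phagocytes had the same direction in PD1 against control, 6 of 6 in both classes. Of those named as lower, 1 of 1 in CD8 T cells and 4 of 6 in phagocytes did. In neutrophils 4 of 4 genes named as higher and 1 of 5 named as lower that had a value in PD1 against control did, and in NK cells 1 of 4. For neutrophils the PD1 against control intervals of Il1a (−0.32 to 1.77) and F3 (−0.06 to 1.70) held 0. Csf3 and Saa3 rested on 7 and 9 UMIs in the PD1 library, with the control library, at 0 and 1, set to 3. The share of all tested genes with the same direction was not counted, so these counts have no background beside them.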

How the data were processed

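The deposited values are raw UMI counts for every gene and barcode, which the authors did not normalize. The submitters' processing notes and the file headers name Cell Ranger 7.0.0 and GRCm38, and the labels' protocols name 10x 5′ libraries. Not given in the sources used here are the annotation release, how cells were called, and the setting for intronic reads, which would mostly add to the counts of long genes.

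From the counts, barcodes with at least 300 of 32285 genes and at most 10% UMIs of 13 mitochondrial genes were kept. Classes were gates on UMIs per cell: 3 of CD3 and receptor constant genes for T cells (with at least 2 of Cd8a and Cd8b1 and none of Cd4 and Foxp3 for CD8), 3 for NK cells, 3 for neutrophils (with at most 2 of phagocyte genes) and 5 for phagocytes. Gate thresholds were set after the files were opened. Cells passing several gates were left out. No predicted doublets were removed from the gated classes, since Scrublet's automatic thresholds marked almost none in 3 libraries. They marked 2 cells of the control library, 0 of the CD40 and PD1 libraries and 297 of the combination library. Cells with a doublet score of 0.25 or more were left out of the clustering and belong to no cluster. The same score defined predicted doublets where an alternative removed them. CPM came from summed UMIs, with an exact Poisson interval each, and each log2 ratio had an exact conditional binomial interval. Counts under 3 were set to a floor of 3. Shares had exact Clopper-Pearson intervals. A gene below 0.2 of its CPM in the highest class was taken as possible free RNA. Genes tested had at least 50 CPM and 30 UMIs in the higher library, and list members at least 10 UMIs. Named genes were up to 6 per direction and class that were past 2-fold and not possible free RNA, ranked by the interval bound nearest 0. Mitochondrial, ribosomal, haemoglobin, immunoglobulin, T cell receptor, sex-linked and predicted genes were left out. Members, 25 gene lists and alternatives were chosen with earlier results of these data known, and 3 list genes had no row. Clustering of all libraries used scanpy 1.11.5, with 2000 variable genes, 30 components, 15 neighbours and Leiden resolution 1.5. Detection shares were taken after thinning cells to a fixed number of UMIs. In the 2 libraries compared, 82 and 153 CD8 T cells, 29 and 39 NK cells, 22 and 21 neutrophils, and 171 and 175 phagocytes were shallower and left out of those shares. Intervals were also run on simulated Poisson counts. These follow the model that the intervals assume, so they could not test the effect of UMIs clumped in few cells. Values of 1 list member are not reported here.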

Additional observations from a re-analysis of the deposited data

Results flagged for a closer look

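For the values here, the combination library differed from the CD40 library in one direction and the PD1 library from the control library in the other, or nearly so. With 1 library per group the difference between the 2 contrasts was not tested. The neutrophil share had a log2 ratio of 0.82 in combination against CD40 and −0.69 in PD1 against control, and the phagocyte share −0.45 and 0.18.

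In NK cells the 2 log2 ratios were 7.56 and −3.01 for Gzme, 4.00 and −3.92 for Gzmd, and 1.15 and −0.68 for Gzmc. The first 2 genes were carried by few cells.

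In neutrophils they were −2.09 and 1.67 for Chil3, −2.02 and 1.12 for Hspa1b, −1.70 and 1.81 for Ngp, and −1.65 and 1.86 for Ccl2. Chil3, Hspa1b and Ngp were carried by few neutrophils, and without the 10 highest cells per library the first log2 ratio was −0.33 for Chil3, −0.72 for Ngp and −1.06 for Ccl2, and 0.93 for Hspa1b, the same sign as its PD1 against control value. The 1.81 of Ngp rests on 9 UMIs in the PD1 library and 1 in the control library, which was set to 3. In phagocytes they were −1.94 and 0.066 for Hspa1b, and −1.76 and 0.051 for Hspa1a, where the PD1 and control libraries were nearly level.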

How the results depend on the processing

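Of the 35 named values, all kept their direction with predicted doublets removed, mitochondrial UMIs at most 5%, doubled gate thresholds, equal weight per cell or the median set to 0, and 34 did with cells named by cluster. Without the 10 highest cells per gene and library 30 of 34 did. The exceptions were Ifng in NK cells (−0.13) and Camp (1.61), Hspa1b (0.93) and Hspa1a (0.56) in neutrophils, and with cells named by cluster Mpo (−1.19). Thinning reversed the difference in the share of cells with a UMI, in percentage points, for Ifng in NK cells (−2.78), Camp in neutrophils (−0.0066) and Arg1 in phagocytes (1.29).

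Counts of genes higher and lower from 10 CPM were 24 and 23 in CD8 T cells, 29 and 12 in NK cells, 209 and 949 in neutrophils, and 70 and 56 in phagocytes. NK cells had 3 and 2 with equal weight and 1 lower with cells named by cluster. Neutrophils had 284 and 32 with the median set to 0, 45 and 14 without cluster 20, and 65 lower with cells named by cluster.

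With cells named by cluster, equal weight and without 1 group of cells in turn, list medians were 1.05, 1.15 and 1.14 (without Trbv3) for granzymes C to G in CD8 T cells, and 3.33 in NK cells with equal weight. Neutrophil activation was 1.63, 2.13 and 0.48 (without cluster 20). In phagocytes, proliferation was −0.78 in 1 of these settings and −0.74 in another. Interferon gamma was 0.98 without cluster 22 and 0.88 in another setting, and the suppressive list was −0.63, −0.66 and −0.80. Class shares had log2 ratios of 0.34 for CD8 T cells without Trbv3, 0.11 for neutrophils without cluster 20 and −0.55 for phagocytes without cluster 22. No alternative that leaves out a replicate exists with 1 library per group. No paired analysis was possible because each group is 1 library. Conventional CD4 T cells gave no share with cells named by cluster. The alternatives without a cluster, without Trbv3 and without the highest cells were chosen after seeing the data. Depth limits classes of few cells.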
